A study of Owenia fusiformis with 9 samples.

Results

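Transcripts abundant in the retractor muscle and the testis of the annelid *Owenia fusiformis*, and low in every other adult tissue sampled, were collected from the deposited table of 9 adult RNA-seq libraries. A transcript was a member if the lower of its retractor muscle and testis values was 200 or more, if that lower value, with 10 added, was at least 5 times the highest value among the other 7 libraries, also with 10 added, and if its retractor muscle and testis values, each with 10 added, were less than 5-fold apart. These criteria were met by 251 of 31911 transcripts (0.787%), from 241 of 26974 genes. The limit of 300 transcripts set for the group was therefore not reached, and all 251 are described. Because the values of all 9 libraries chose the members, the high levels in the retractor muscle and testis and the low levels elsewhere are descriptions of the choice and have no test.

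Each tissue was represented by 1 library, from untreated adults kept in artificial sea water with mud and fed on algae. The retractor muscle and testis libraries carry the label male, as do the blood vessel and head plus chaetae libraries, where chaetae are the bristles of annelid segments. The gut (named midgut here after the methods of the study), ovary, body wall, head and tail libraries carry the label female. Head and tail were dissected from 5 female worms, the tissues of the male from 1 worm, and the midgut and ovary from 1 female. The submitters' outline of the dissections gives muscle and chaetae with no further detail, and the methods of the study speak of a head sample taken with the most anterior segments. The retractor muscle and head plus chaetae are placed with the male, and the body wall with the female, by sex label. With 1 library per tissue, tissue, worm and library cannot be told apart, and nothing below has a replicate.

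The testis is where male germ cells divide, pass through meiosis and are remodelled into sperm. In many animals its RNA includes abundant transcripts that other tissues hardly use, for instance those of proteins that pack sperm chromatin or build the sperm tail. Retractor muscles pull back a part of the body, and muscle RNA is typically rich in transcripts of contractile proteins such as actin, myosin and the troponins. The transcript identifiers were not paired with gene names here, so no member has a known role in this account, and the tissue labels were not checked against marker genes.

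The retractor muscle and testis libraries stood apart from the rest in the sum of their values. Their normalized values summed to 56451691 and 122592193, against 9938696 to 13848990 in the other 7 libraries. The members themselves held 75.1% of the retractor muscle sum and 83.0% of the testis sum. The large sums are therefore mostly the values of the members, and not a feature separate from them. Approximate read numbers, recovered from the smallest steps in the values, differed less, with 20533335 and 22177997 against 14608988 to 19034112. One read was worth 2.75 in retractor muscle and 5.53 in testis, against 0.595 to 0.948 elsewhere, so that the minimum of 200 stands for 72.7 reads in retractor muscle and 36.2 in testis. No result below can be given without these libraries, since the members are defined by them. In bulk RNA, fewer cells of a kind and less RNA per cell cannot be told apart.

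Together the 251 members held 75.1% of the summed values of the retractor muscle library (95% Wilson interval 75.11% to 75.14%, counting error only) and 83.0% of those of the testis (82.98% to 83.01%). They held 0.864% of the head plus chaetae library (0.860% to 0.868%), 0.140% of the ovary (0.138% to 0.142%) and 0.0521% to 0.0982% of the other 5. The tiers were set by the lower of the pair of values. The highest tier, at 100000 or more, had 26 members and took 71.4% of the retractor muscle and 79.6% of the testis. Between 10000 and 100000 there were 47 members, with 2.91% and 2.77%. The tier between 1000 and 10000 had 93 members, with 0.710% of the retractor muscle and 0.548% of the testis. The last tier, of 200 to 1000, had 85 members and 0.0934% and 0.0913%. The abundance of the group thus lay almost entirely with 26 of its members, in each of the 2 libraries.

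**Figure D1:**
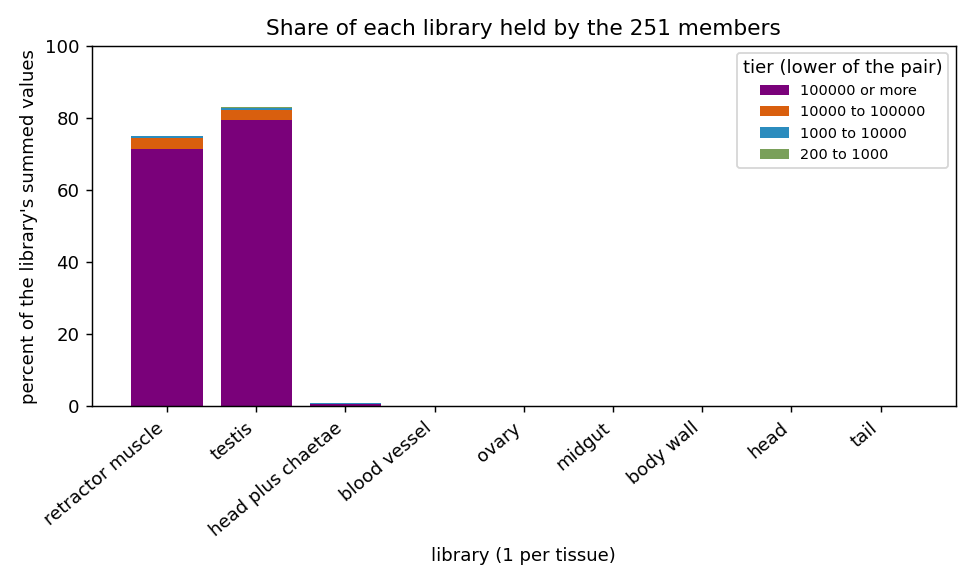
Percent of the summed normalized values of each library held by the 251 members, in 4 tiers of the lower of the retractor muscle and testis values (1 library per tissue, no error bars). The bars reach 75.1% for the retractor muscle and 83.0% for the testis, mostly from the 26 members of the highest tier, and 0.864% or less for the other 7.

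A single transcript, OFUSG14382.2, made up a large part of this. Its normalized value was 19620653 in retractor muscle and 49407470 in testis, against 795 in blood vessel, 376 in ovary, 315 in tail, 291 in body wall, 199 in midgut, 185 in head and 132 in head plus chaetae. The next by the lower value, OFUSG14386.1, had 4617545 and 14491867, against 57.5 in the head to 178 in the blood vessel. OFUSG14381.1 had 5221737 in retractor muscle and 4406481 in testis, against 24.6 in the head plus chaetae to 173 in the ovary, and was thus the higher in the retractor muscle, whereas the first 2 were the higher in the testis. These 3 transcripts lie within 6 consecutive gene numbers and together took 52.2% of the retractor muscle and 55.7% of the testis. The 10 most abundant members took 66.2% and 73.8%, and the 50 most abundant 73.6% and 81.8%.

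The other 7 of the 10 most abundant members fell into 3 kinds by their level elsewhere. In the first kind every other library was low. OFUSG10152.1 had 2380416 in retractor muscle and 9857422 in testis, against 22.2 in the head plus chaetae to 177 in the blood vessel. OFUSG25563.1 had 1486795 and 4019618, against 10.2 in the head plus chaetae to 62.5 in the blood vessel. OFUSG15285.1, with 1122114 and 869641, was higher in the retractor muscle. It had at most 20.9 elsewhere, in the blood vessel, and the largest margin of all members, 28161 times the highest other library with 10 added to each. OFUSG14971.2 had 402269 and 1275115, and no read in the midgut and the tail. This holds for the transcript and not its gene, as the isoform OFUSG14971.1, no member, had 21376 in the head plus chaetae. The second kind had far more in the ovary than in the other 6. OFUSG14187.1 had 764471 and 1601205, against 1697 in the ovary and 9.61 to 81.3 in the other 6 libraries. OFUSG10154.1 likewise had 479004 and 991694, against 1440 in the ovary and at most 19.9 in the other 6. The third kind was OFUSG10512.1, with 1272757 in retractor muscle and 3596365 in testis, against 50259 in the head plus chaetae and 11.3 to 65.3 in the other 6. It alone accounted for 50.9% of all that the members contributed to the head plus chaetae library.

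**Figure D2:**
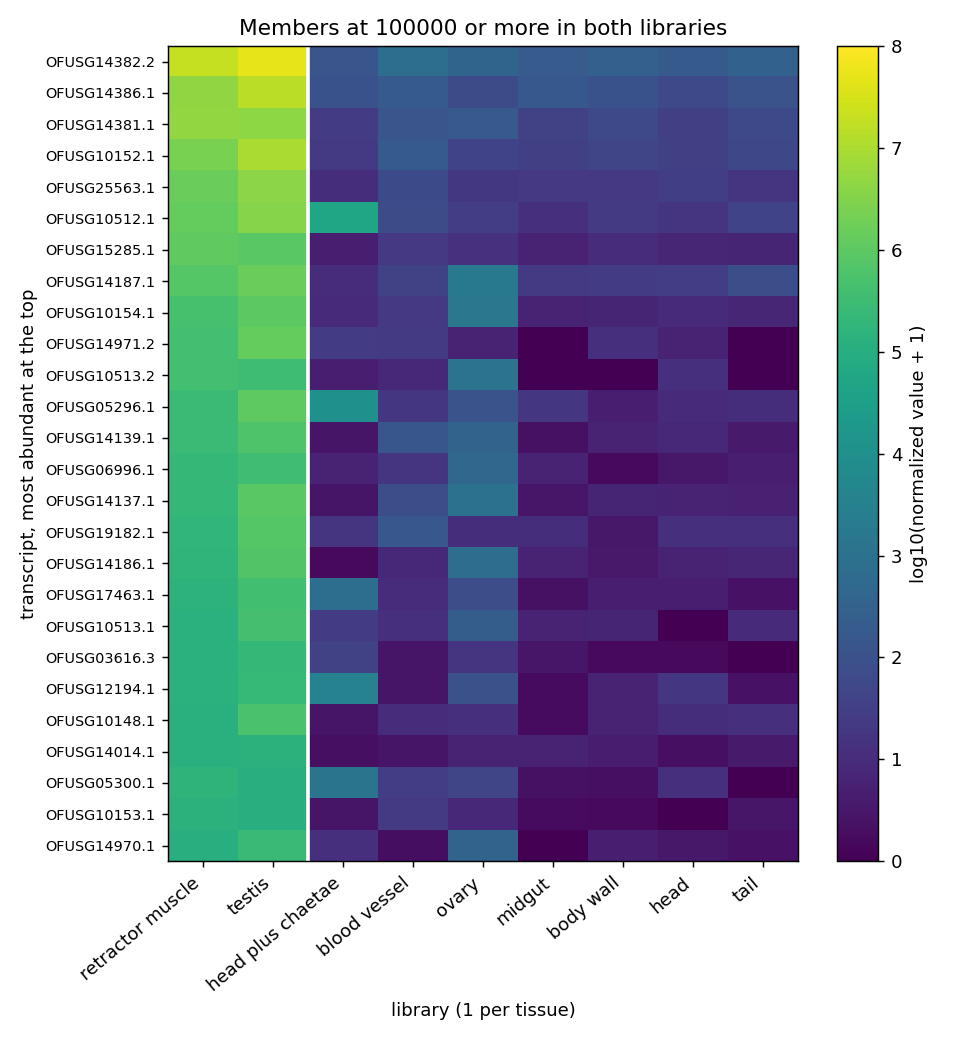
Level of the 26 members at 100000 or more in both the retractor muscle and the testis, as log10 of the normalized value plus 1, in each of the 9 libraries (columns, 1 library each) with the most abundant transcript at the top. The first 2 columns stand apart from the other 7 in every row, while single cells of the head plus chaetae (50259 for OFUSG10512.1) and ovary columns (1697 for OFUSG14187.1) stand out from the rest of their rows.

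The testis was the higher of the pair for most members on the deposited scale. It was higher for 204 of 251 and the retractor muscle for 47, with a median ratio of retractor muscle over testis of 0.483 and an interquartile range of 0.325 to 0.802. A difference of more than 2-fold was found towards the testis for 128 members and towards the retractor muscle for 12. Among the 3739 other transcripts with 200 or more in both libraries, testis values were over 2-fold higher for 18.7% and retractor muscle values for 11.2%, the retractor muscle was higher for 42.4%, and the median ratio was 0.900. This direction depended on the scale. With each library scaled to the same sum, the median ratio of the members was 1.05 and 136 of them were higher in the retractor muscle. Scaled to the sum of the transcripts outside the group, it was 0.717, and 80 were higher in the retractor muscle. The order of the transcripts by ratio is free of this choice, and the median of the members lay below that of the 3739 others on each scale, as at 1.05 against 1.96 with equal sums.

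The median ratio changed little across the tiers. It was 0.408 in the highest tier, 0.508 and 0.545 in the next, and 0.439 in the lowest. In the highest tier it spanned 0.225 to 1.42, with the retractor muscle higher for 5 of 26, and in the lowest tier 0.196 to 4.97. Pearson's r of the log2 values of the pair over all 251 members was 0.96 and Spearman's rho 0.92, as a description only. The members are points of the same 2 libraries, and the limit of 5-fold sets much of this likeness. Within the tiers r was 0.92, 0.73, 0.64 and, for the lowest, 0.17, where the levels span less. On the deposited scale, the exact 95% Poisson intervals of the pair, which cover counting error and neither the scaling nor the spread between samples, overlapped for 19 of 251 members, of which 13 were in the lowest tier and none in the highest.

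The members farthest apart were of middle or low abundance. Towards the retractor muscle they were OFUSG14559.1, with 1237 (Poisson interval 1125 to 1357) in retractor muscle and 249 (181 to 333) in testis, against at most 39.7 elsewhere, in the head plus chaetae. OFUSG12195.1 had 32586 and 7578, and OFUSG16907.1 had 13385 and 3195, with ratios of 4.30 and 4.19. These last 2 also had their highest other value in the head plus chaetae, at 1041 and 573. Towards the testis, OFUSG14138.1 had 317 (261 to 380) in retractor muscle and 1614 (1434 to 1810) in testis, a ratio of 0.196. OFUSG17698.1 had 1140 and 5654, and OFUSG16919.1 had 1713 and 8274. The 3 named towards the retractor muscle thus had the head plus chaetae as their highest other library, as had 41.8% of all members. OFUSG24975.1, with a ratio of 2.19, had the ovary instead. Of the 3 towards the testis, OFUSG14138.1 and OFUSG17698.1 had the ovary as the highest other, at 34.2 and 62.9, and OFUSG16919.1 had 270 in the head plus chaetae.

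**Figure D3:**
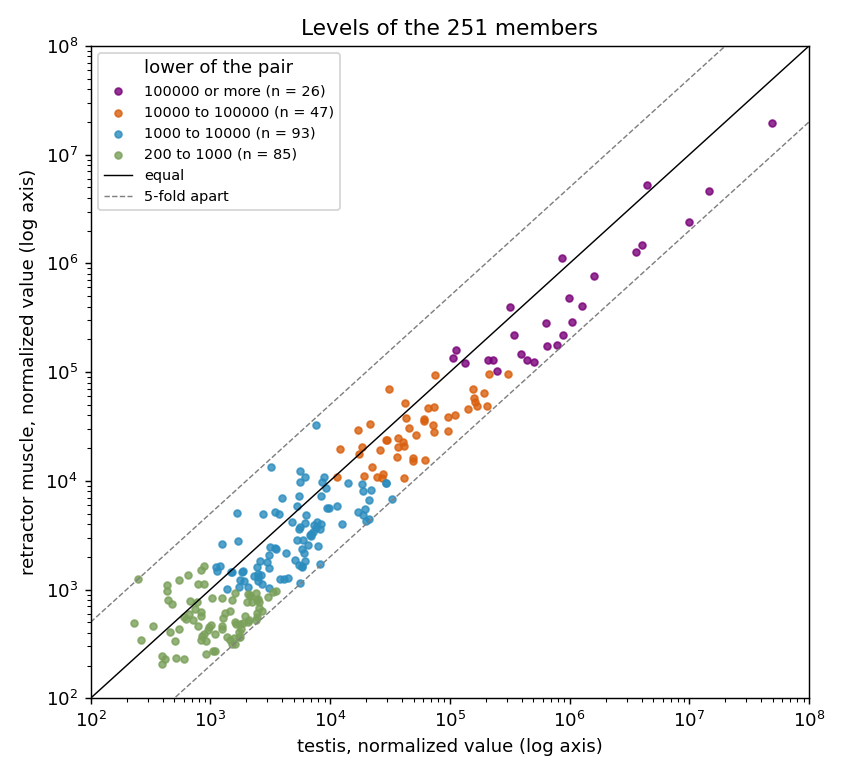
Normalized value in the retractor muscle (y axis) against the testis (x axis) for the 251 members, on log axes, with 1 point per transcript coloured by tier (26, 47, 93 and 85 members), a solid line for equal values and dashed lines 5-fold from it. Of the points, 204 lie below the line of equal values and 47 above it on this scale.

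Which of the other 7 libraries came next was not itself a criterion, but the 5-fold margin acted on the highest of these 7 values and so bears on it. It was the head plus chaetae for 105 members (41.8%), the ovary for 49 (19.5%), the head for 26, the blood vessel and the midgut for 24 each, the tail for 12 and the body wall for 5. The remaining 6 members had no read in any of the 7. Among the 3739 other transcripts with 200 or more in both libraries, the head plus chaetae came next for 13% and the ovary for 24.7%. All but 43 of these others failed the 5-fold margin, so the 2 sets differ by the values compared. The median level of the members was 19.2 in the head plus chaetae, 8.19 in the ovary, 5.39 in head, 2.87 in tail, 2.84 in the blood vessel, 2.38 in the body wall and 1.33 in the midgut. The blood vessel, also labelled male, was above the head plus chaetae for 62 of the 251 members. Among the most abundant members the order was the other way round from these medians, as the blood vessel was the higher for 8 of the 10 most abundant and for 17 of the 26 of the highest tier, where its median was 21.3 against 14.1 in the head plus chaetae.

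A level over 100 in the head plus chaetae was found for 63 members, and a level over 100 in the ovary for 26. Of these, 49 passed it in the head plus chaetae but not the ovary, 12 in the ovary but not the head plus chaetae, and 14 in both. Those in both were 14 of the 26 over 100 in the ovary, beside 63 of all 251 members over 100 in the head plus chaetae. The 49 had a median of 11636 in retractor muscle and 21916 in testis, against 288 in the head plus chaetae, 17.8 in the ovary and 1.32 to 7.19 in the other 5. The 12 were more abundant, with medians of 220042 and 538117, against 403 in the ovary, 9.30 in the head plus chaetae and 4.97 to 18.0 in the other 5. The 14 were of a broader kind, with medians of 8877 and 24351, against 450 in the head plus chaetae, 249 in the ovary and 86.8 to 311 in the other 5. In these 14 the restriction to the pair was therefore one of degree. The median ratio of retractor muscle over testis was close in the 3 kinds, at 0.486, 0.480 and 0.546. By tier, the ovary passed 100 for 12 of 26 members in the highest, 5 of 47 and 9 of 93 in the middle and 0 of 85 in the lowest, whereas the head plus chaetae did for 7, 25, 30 and 1. The criteria bear on this, since the 5-fold margin keeps members of the lowest tier low elsewhere.

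After OFUSG10512.1, the next largest head plus chaetae level in the group was that of OFUSG05296.1, with 288043 in retractor muscle and 1056144 in testis, against 10526 in the head plus chaetae and no more than 111 elsewhere. OFUSG12194.1 followed, with 128034 and 227434, against 3639 in the head plus chaetae, and then OFUSG15286.1 and OFUSG26339.1, of the tier below. OFUSG15286.1 had 70559 and 31357, against 3187 in the head plus chaetae and no more than 24.0 elsewhere. OFUSG26339.1 had 29250 and 17030, against 3175 in the head plus chaetae and no more than 19.8 elsewhere. In the head library OFUSG05296.1, OFUSG15286.1 and OFUSG26339.1 were low, at 8.98, 0.598 and 1.80, so that the signal was in the sample with chaetae and not in the head library, which differs from it in sex and worms as well as in tissue. OFUSG04242.1 differed, with 6832 in retractor muscle and 32711 in testis, against 786 in the midgut, 732 in the body wall, 738 in the head plus chaetae and 120 to 488 in the other 4. In the lowest tier, OFUSG07311.1 had 828 and 1255, against 48.5 to 126 in the other 7 libraries. OFUSG00688.4 had 1365 and 647, against 110 in the tail, 47.3 in the blood vessel, 22.2 in the head and no read in the other 4.

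The 6 members with no read in the other 7 libraries ranged widely in level. OFUSG10514.1 had 20374 in retractor muscle and 18622 in testis, at least 6548-fold higher than the floor of 3 reads in the other library where a read is worth most. The others were OFUSG14382.1 with 1647 and 884, OFUSG14969.1 with 767 and 768, OFUSG19464.1 with 614 and 1330, OFUSG17135.1 with 346 and 829, and OFUSG05297.2 with 344 and 265, at least 93.3-fold to 311-fold higher than that floor. The absence of reads is that of the transcript and not always of its gene. The isoform OFUSG17135.4 had 2252 in the ovary, and OFUSG14382.2 had 132 to 795 in the 7 libraries. OFUSG10514.2 had 69.7 in the ovary, and OFUSG05297.1 had 24.6 in the head plus chaetae. All but OFUSG17135.1 belong to runs of consecutive gene numbers, which are described next.

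The gene numbers of the members were not spread evenly. The identifiers number 26974 genes without a gap, and 52 of the 241 member genes (21.6%) had another member gene at a neighbouring number, whereas 0.893% of all genes were member genes and 1.7% of all genes had a member gene at a neighbouring number. They formed 19 runs, of which 11 had 2 genes, 7 had 3 and 1 had 9. Of the genes 1 number away from a member gene, 13.7% were member genes. The share was 9.54% at a distance of 2, 6.22% at 3, 5.39% at 4 and 4.15% at 5, and 0% to 2.49% at distances of 7 to 20. Whether neighbouring numbers are neighbours in the genome, and whether genes of a run resemble each other in sequence, was not examined here. Reads of closely similar transcripts could be divided between them by the pseudo-alignment.

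Runs took in a larger share of the members in the higher tiers. In the highest tier 20 of 26 members (76.9%) were in runs, against 17 of 47 (36.2%), 11 of 93 (11.8%) and 9 of 85 (10.6%) in the tiers below. The median of the lower value was 32354 for the 57 members in runs and 1530 for the 194 outside them. Runs held 84.2% of the summed member values of the retractor muscle and 81.6% of those of the testis. Without OFUSG14382.2 these shares were 70.5% and 64.2%. Members of a run nevertheless differed widely in level, by more than 10-fold in 11 of 19 runs and by less than 2-fold in 2.

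**Figure D4:**
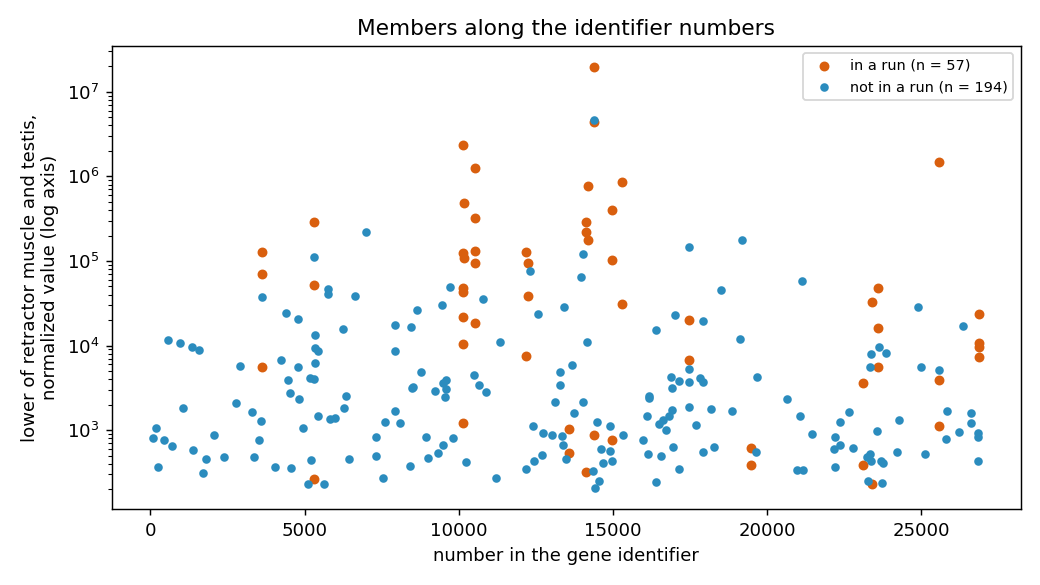
Lower of the retractor muscle and testis values (normalized, log axis) of the 251 members against the number in the gene identifier, with the 57 members in runs of consecutive numbers in orange and the 194 others in blue. Runs take in 20 of the 26 members at 100000 or more, and 9 of the 85 members of 200 to 1000.

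The longest run covered all 9 numbers of OFUSG10146 to OFUSG10154. From its first to its last number, OFUSG10146.2 had 1213 in retractor muscle and 1769 in testis, OFUSG10147.1 had 52188 and 42450, and OFUSG10148.1 had 123393 and 503179. OFUSG10149.1 had 48461 and 204875, OFUSG10150.1 had 32976 and 21529, and OFUSG10151.1 had 10540 and 41582. The run closed with OFUSG10152.1, given above, OFUSG10153.1 with 134496 and 107014, and OFUSG10154.1. On the deposited scale the ratio of retractor muscle over testis thus changed along the run, between 0.237 and 1.53. It was above 1 for OFUSG10147.1, OFUSG10150.1 and OFUSG10153.1. With equal library sums it was also above 1 for OFUSG10146.2 and OFUSG10154.1, at 1.49 and 1.05. These ratios are those of the transcripts. With isoforms summed, OFUSG10150 had 39641 in retractor muscle and 74796 in testis, the reverse direction. OFUSG10146.2 held 63.2% of the value of its gene in retractor muscle and 8.49% in testis. Apart from the ovary value of OFUSG10154.1, given above, the highest level of any of these members in another library was 177, for OFUSG10152.1 in the blood vessel. The run ended sharply. OFUSG10144.1, 2 numbers before it, had no read in the retractor muscle or the testis, and OFUSG10145.1 had no read in retractor muscle and 11.1 in testis, with 149 in the body wall. On the far side OFUSG10155.1 had 49.7 in each of the 2 libraries and 2375 in the midgut.

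**Figure D5:**
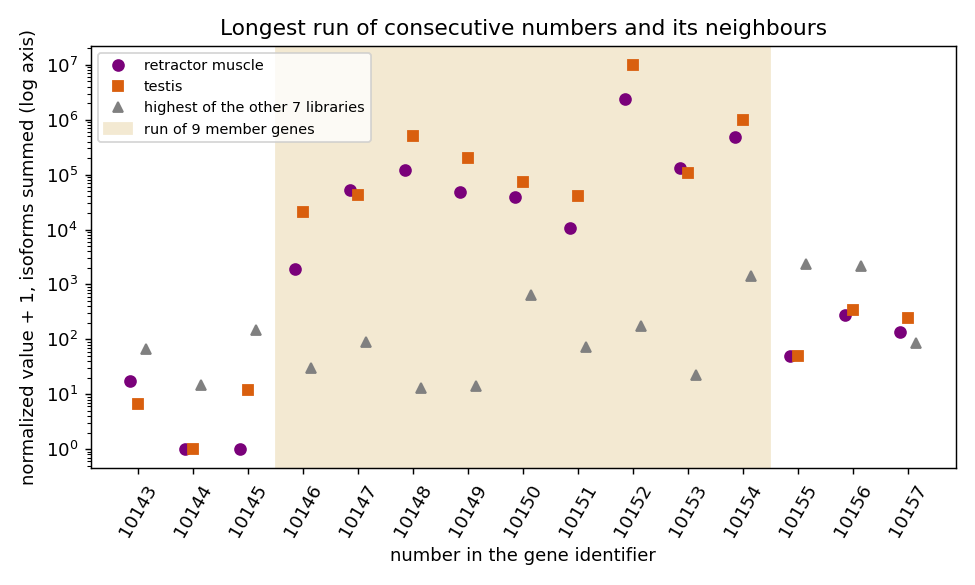
Normalized value plus 1, with isoforms summed, on a log axis for the 9 genes OFUSG10146 to OFUSG10154 (shaded) and the 3 genes numbered before and after them, in the retractor muscle (circles), the testis (squares) and the highest of the other 7 libraries (triangles). Within the shading the pair lies far above the other libraries. Outside it the pair lies near or below them, except for OFUSG10157, with 137 in retractor muscle and 249 in testis against at most 83.5 elsewhere.

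The second run, OFUSG10512 to OFUSG10514, had 5 members in 3 genes and took 3.40% of the retractor muscle and 3.82% of the testis. Besides OFUSG10512.1 and OFUSG10514.1, it held OFUSG10513.1 with 130166 and 442915, OFUSG10513.2 with 398233 and 320788, and OFUSG10514.2 with 95115 and 304870. The 2 isoforms of OFUSG10513 were high in the ovary, at 226 and 1107, and low in the head plus chaetae, at 26.4 and 3.60, the reverse of their neighbour OFUSG10512.1, which had 28.0 in the ovary. Members of 1 run therefore did not share a profile outside the pair. The third run was OFUSG25562 to OFUSG25564, in which OFUSG25563.1, given above, stood between OFUSG25562.2 with 6994 and 3969 and OFUSG25564.1 with 1488 and 1133. The next library was the head plus chaetae for OFUSG25562.2, at 481, and the head for OFUSG25564.1, at 53.3.

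Other stretches of the numbering were also dense, although these were singled out after their values were seen. In 54 bins of 500 gene numbers the median was 4 members and the highest 15, in the bin from 14001 to 14500, which alone held 55.0% of the retractor muscle and 58.9% of the testis. The ovary was the next library for every member of its runs OFUSG14137 to OFUSG14139 and OFUSG14186 to OFUSG14187, as for OFUSG14137.1 with 219475 in retractor muscle and 875423 in testis, against 1035 in the ovary and at most 83.5 elsewhere. OFUSG14142.1, between these runs, failed only the limit of 5-fold, with 556594 and 3484425, 6.26-fold apart, and had 4732 in the ovary. The run OFUSG14381 to OFUSG14382 of the same bin held 44.0% of the retractor muscle and 43.9% of the testis, and did not share this. Its next library was the blood vessel for OFUSG14382.2 and the ovary for OFUSG14381.1. OFUSG14386.1 also had the blood vessel next. In all, 6 of the 19 runs had the same next library for every member, the ovary in 2 and the head plus chaetae in 4. A stretch around OFUSG05296 leaned to the head plus chaetae. OFUSG05300.1 had 159109 and 112409, against 1220 in the head plus chaetae, and its neighbour OFUSG05301.1, no member, had 212905 in retractor muscle and 1039 in testis, against 26894 in the head plus chaetae.

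Isoforms of a member gene did not all follow it. Several isoforms were listed for 44 of the 241 member genes (18.3%), against 13.6% of all genes. In 10 of the 44, 2 isoforms were members. Of the 48 isoforms of member genes that were not members, 20 had no read in at least 1 of the 2 libraries, 22 had 200 or more in both, and 23 were higher in another library than in the lower of the pair. Among all 31911 transcripts, 15209 had no read in at least 1 of the 2 libraries, so the 20 of 48 are not particular to these isoforms. Of all transcripts, 3990 (12.5%) had 200 or more in both. How many of all transcripts were higher in another library was not counted, so the 23 have no such share beside them. OFUSG14971.1 had 129771 in retractor muscle and 79731 in testis, but 21376 in the head plus chaetae, where OFUSG14971.2 had 22.8. OFUSG13960.1 had 19926 and 387612, 19.4-fold apart, and OFUSG10146.1 had no read in retractor muscle and 4604 in testis. Isoforms of 1 gene share much of their sequence, and the division of reads between them is an estimate.

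The thresholds cut through neighbouring values. By fold, the last members were OFUSG16174.1 at 5.02 times and OFUSG08497.1 at 5.00 times the highest other library, and the first left out were OFUSG18899.1 at 4.85 and OFUSG05552.1 at 4.80. OFUSG16174.1 had 2435 and 3438, against 477 in the midgut, and OFUSG08497.1 had 3142 and 6749, against 620 in the head, so the last members were broadly present. By level, OFUSG14427.1 was included with 206 in the retractor muscle and OFUSG10403.1 left out with 198, well inside the counting interval of the first, 162 to 258. By distance, OFUSG14138.1 was included at 4.97-fold and OFUSG03781.1, with 1749 and 8783, left out at 5.00-fold. The limit of 5-fold left out 43 of the 294 transcripts that met the other criteria. On the deposited scale, 42 of these were higher in the testis and 1 in the retractor muscle. All 43 are among the 3739 other transcripts at 200 or more in both. Of those 3739, 18.7% were over 2-fold higher in the testis and 11.2% in the retractor muscle. What the limit would leave out with equal library sums was not counted. The median ratio of the members itself moved from 0.483 to 1.05 with that scale. The 294 were 7.37% of the 3990 transcripts at 200 or more in both libraries.

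The same criteria were applied to all 36 pairs of libraries to place the size of the group. The retractor muscle and testis ranked first with 251, followed by the head plus chaetae and the head with 196, the blood vessel and the ovary with 78, the midgut and the tail with 55 and the body wall and the tail with 49. The median pair had 2 transcripts, and 10 pairs had none. The 196 of the head plus chaetae and head pair had a median lower value of 757, against 2349 for the 251, and held 7.73% and 7.84% of their libraries. With every library scaled to the median sum, the order of the first 2 pairs changed, with 116 transcripts for the retractor muscle and testis and 228 for the head plus chaetae and head. Of the 116, 111 were members. These were 44.2% of the 251, so the other members did not meet the criteria on that scale. The causes of the shared abundance were not tested.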

How the data were processed

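RNA of 9 adult tissues of *O. fusiformis* was sequenced by BGI. The authors pseudo-aligned trimmed reads with kallisto to their gene models and normalized the counts with DESeq2, and the deposited values are this signal per transcript and library. The submitters' processing notes name kallisto 0.44.0, DESeq2 1.34.0 and R 4.1.2, and the methods of the study other versions of the first 2. The step between the tools is not given in the sources read. The value of 1 read was the least-squares step of values of up to 20 reads. In the retractor muscle 93.1% of them were whole reads within a tolerance of 0.1 read, and 96.1% to 100% elsewhere. With 1 library per tissue no count model was fitted and no test run. Intervals cover counting error only.

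Members, criteria and lists were chosen with earlier results of these data known. Transcripts named are the 10 with the highest lower value, the 5 with the largest margin, the 3 with the highest and lowest ratio, those of the 3 longest runs (ties by summed lower value), those nearest a threshold, and the 2 per tier highest elsewhere. None was left out by the limit of 300, so the nearest below each threshold took that place. Others, given for contrast, were chosen after their values were seen. A reference table of 27038 genes held 0 of the identifiers, and no sequence is shown. Alternatives covered pseudocount, fold, minimum, distance limit, equal library sums, summed isoforms, libraries in the criterion and definitions of a run. The working of the criteria was checked on simulated data with equal levels in the pair, 1 level in the other 7 libraries and counting error only. That check does not bear on unequal pairs, the scaling, the division of reads between isoforms or the spread between worms. Python 3.11.15, numpy 2.4.6, pandas 2.3.3, scipy 1.17.1 and matplotlib 3.10.9 were used.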

Additional observations from a re-analysis of the deposited data

How the results depend on the processing

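No paired analysis was possible because each tissue has 1 library, and leaving out a replicate was not possible for the same reason. The count of 251 transcripts lay between 203 and 294 under the other pseudocounts, minimums of 100 and 500, a 10-fold criterion, no limit on the distance of the pair, summed isoforms and each of the other 7 libraries left out of the criterion. It was 377 at 2-fold, 111 with the pair under 2-fold apart and 116 with equal library sums. Shares of the retractor muscle and testis were 76.2% and 87.6% for members chosen with equal sums, and 24.8% and 34.4% when the 11 most abundant members were taken out of both the members and the library sums. The median log2 ratio of retractor muscle over testis, -1.05 on the deposited scale, turned to 0.069 with equal sums and was -0.48 when scaled to the other transcripts. Member genes in runs numbered 52, 65 with numbers up to 2 apart and 81 with up to 5. The retractor muscle and testis pair ranked 2 of 36 with equal sums and at 2-fold, where the blood vessel and ovary had 565. Depth limits the lowest tier, where the fewest reads were 75.1 in retractor muscle and 42.0 in testis.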

Other observations

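Leaving 1 library out of the criterion added transcripts that had failed the 5-fold margin through that library, some of them narrowly. Without the blood vessel 29 were added, with a median blood vessel value of 12277. Without the head plus chaetae 20 were added, with a median of 507 there, and without the midgut 19, with a median of 588 there. Without the ovary, the head and the body wall 7 each were added, with medians of 433, 217 and 84.5 in the library left out, and without the tail 3, with a median of 305. The 7 of the body wall had a median lower value of 398. Of the 20 added without the head plus chaetae, 4 lay at a number next to a member gene. One of the 20 was OFUSG06995.1, with 16909 in retractor muscle and 30737 in testis, against 9994 in the head plus chaetae and no more than 29.4 in any of the remaining 6 libraries. OFUSG05293.1 had nearly equal values in the 3 libraries on the deposited scale, with 3883 and 3333, against 3125 in the head plus chaetae and no more than 24.5 in any of the remaining 6. In reads it was not equal but highest in the head plus chaetae. There 1 read was worth 0.600, against 2.75 in retractor muscle and 5.53 in testis.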
